A study of Mus musculus with 4 samples.

Results

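Progress from G1 into S phase and the copying of DNA were read through 33 genes, all of which had 1 row each among the 22809 genes of the deposited expression table. They were taken by gene symbol and fall into 5 roles: 5 cyclin and E2F genes, 12 genes of the MCM helicase and of origin firing, 7 genes of DNA synthesis at the fork, 4 genes of nucleotide synthesis and 5 genes of chromatin assembly and DNA methylation. Values came from poly(A) RNA of fresh glomeruli, the capillary tufts in which the kidney filters blood, taken at 3 weeks of age. The 2 control libraries (control 1 and control 2, by replicate number) are labelled Control (WT) with no treatment. The 2 other libraries are labelled HDAC KO, a podocyte-specific knockout, for which the title of the series names Hdac1 and Hdac2; they are called knockout 1 and knockout 2 after their labels. Each library pooled 2 mice, and no source used here gives the Cre driver or the strain. Podocytes are 1 of several cell types in a glomerulus, beside endothelial, mesangial and parietal cells, and which cells lost either gene was not measured here.

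Before a cell copies its DNA, cyclin E and the kinase CDK2 relieve the retinoblastoma proteins' hold on E2F transcription factors, which then switch on most of the genes described here. CDC6 and CDT1 load the MCM helicase on origins, CDC45 and the GINS complex activate it, and polymerases held by the PCNA clamp copy the strands. Mature podocytes have left the cell cycle, whereas other glomerular and tubular cells keep some capacity to divide, above all in a young, growing kidney.

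All 33 genes had a higher mean log2(TPM + 1) in the libraries labelled HDAC KO than in the controls, but 0 of 33 passed an adjusted p under 0.05 in limma, a linear model with variances moderated across genes. TPM corrects read counts for gene length and sets every library to an equal total. A log2 fold change here is the mean log2(TPM + 1) of the libraries labelled HDAC KO minus that of the controls, and this scale understates the change of low genes. In 30 of 33 genes both knockout-labelled values lay above both control values, and the exceptions were Fen1, Tyms and Tk1. No member had both below. Over the 18612 genes tested, 36.7% lay above in this way and 14.3% below, and 66.6% had a log2 fold change above 0. The members' median log2 fold change was 0.80, beside 0.17 over all genes tested, and single members ran from 0.20 to 1.80. At an unadjusted p under 0.05, 22 of 33 were higher and 0 lower, while over all genes tested 13.4% were higher and 4.46% lower. The adjusted threshold was passed by 1 of 18612 genes, or 0.00537%, which was not a member and was lower, and by 0% in the higher direction; voom on recovered reads called 0 members.

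The counts at these thresholds moved with single libraries. The percentages of all genes in this paragraph take in only genes that were higher in the libraries labelled HDAC KO, and leave out those that were lower. Leaving out control 2 brought 13 members past the adjusted threshold, together with 9.04% of all genes tested, all 13 of them higher; at an unadjusted p under 0.05 there were 24, beside 27.1%. Without knockout 1 the members at an unadjusted p under 0.05 numbered 5, beside 6.34% of all genes, and without knockout 2 they numbered 4, beside 5.27%. Without control 1 there were 15, beside 11.9%, and with mitochondrially encoded genes removed before scaling there were 12, beside 8.92%. At a mean of at least 5 TPM, 19 members were tested, of which 14 had an unadjusted p under 0.05, beside 15.2% of all genes, and 17 had groups that did not overlap, beside 39.3%. Of the 19, Ccna2, Cdt1, Pola1 and Rrm1 had control means of 3.1, 3.07, 4.11 and 4.79 TPM. They therefore passed this filter only through the libraries labelled HDAC KO. With 2 libraries a group, an exact two-sided permutation test cannot go below a p of 0.333 and was not used.

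**Figure D1:**
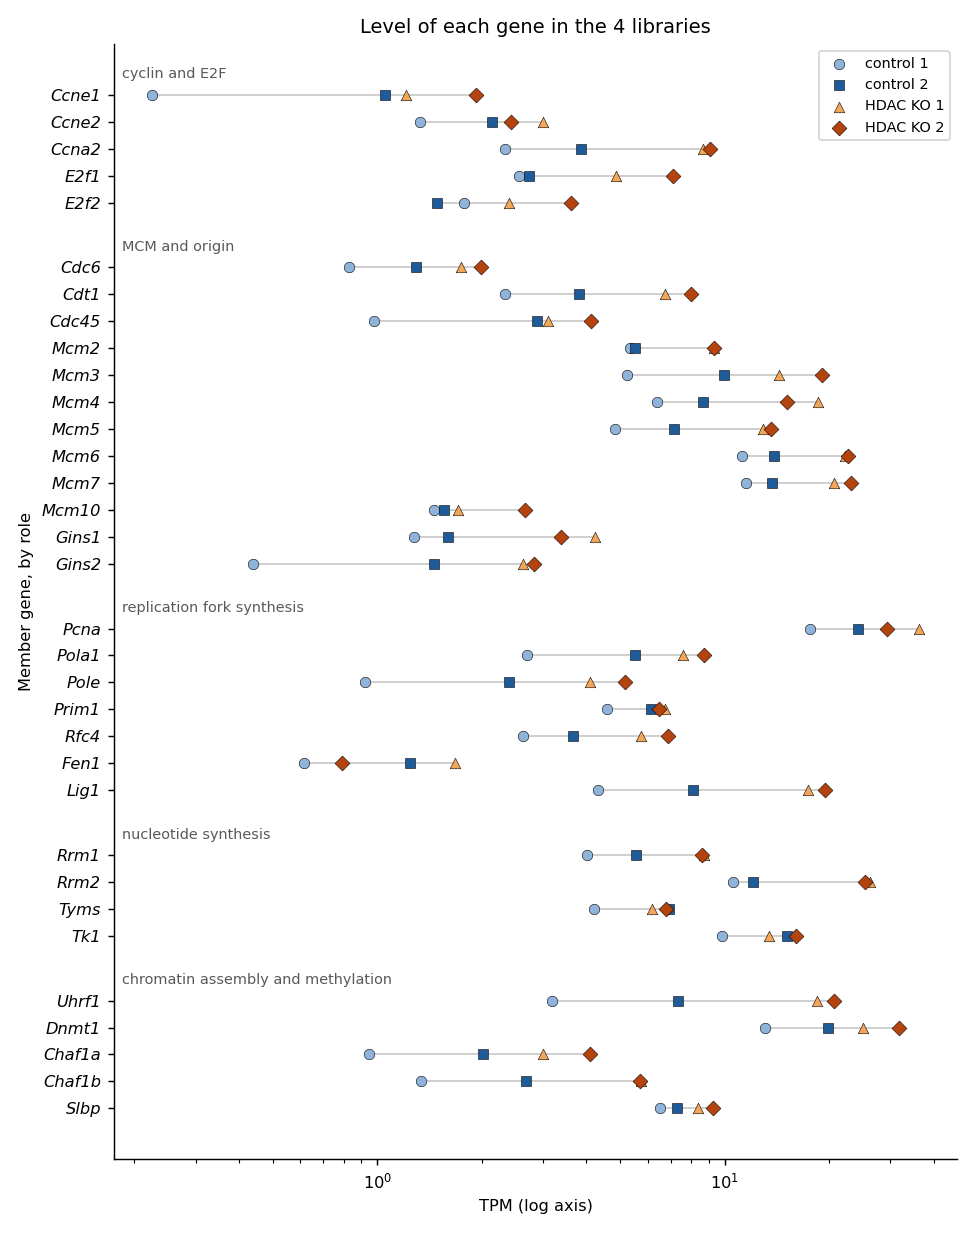
TPM (log axis) of each of the 33 genes in each of the 4 libraries, with genes grouped by role and a grey line spanning the lowest to the highest library. Control 1 was the lowest library for 32 genes, and the symbols of the groups interleave for Fen1, Tyms and Tk1.

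**Figure D2:**
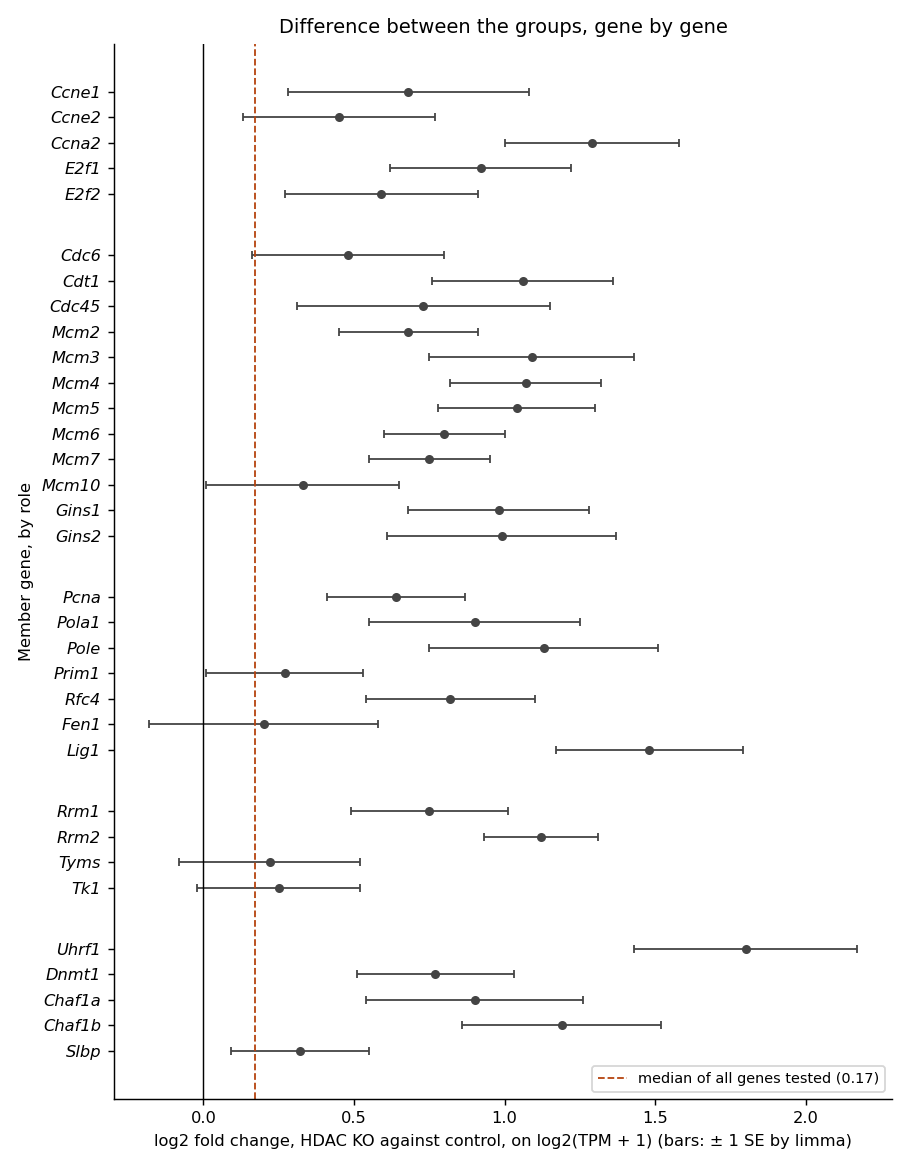
Log2 fold change of each gene (points) with 1 standard error on either side (bars, limma), and the median over all 18612 genes tested at 0.17 (dashed line). All 33 points lie to the right of 0, from 0.20 for Fen1 to 1.80 for Uhrf1.

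The targeted transcripts do not check the labels, since neither was lower in the libraries labelled HDAC KO. Hdac1 was at 19.3 and 18.6 TPM in control 1 and control 2 and at 22.9 and 22.5 TPM in knockout 1 and knockout 2, and Hdac2 at 20.2, 24.1, 23.5 and 20.9 TPM in the same order. Gene-level values also count messages from which exons are missing, and the direction of every difference here rests on the labels. Whole reads recovered from the table numbered 12876939 to 20943138 a library. The members together held 4660 and 5456 reads in the control pair and 11008 and 14121 in the libraries labelled HDAC KO, with a median of 176 reads for a gene in a library.

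The promoters of these genes are known for E2F sites, and the sequences around their RefSeq start sites (GRCm38.p6, 250 bases before to 50 after) were searched for the words TTTCCCGC, TTTGGCGC, TTTCGCGC and TTTGCCGC on both strands, with overlapping matches counted. Of the members, 27 had a promoter in the table, and 11 of these (40.7%) held such a word in at least 1 window, beside 2.6% of 27025 genes with a promoter and 4.3% of 10997 genes that were also tested for expression. Counted by window, 11 of 35 member windows held one (31.4%), beside 2.3% of all 32851. The CCAAT box was found in 60.0% of member windows, 37.4% of all windows and 36.7% of windows of tested genes, and the GC box GGGCGG in 71.4%, 35.7% and 58.5%. The words TTTGAA and TTCGAA of the CHR element, known from mitotic promoters, were in 17.1%, 19.2% and 14.5%, so the members lay below one background and above the other. Member windows had a median of 21 CpG, beside 7 over all windows and 19 over those of tested genes. The 11 members with an E2F word had a median log2 fold change of 0.90, beside 0.68 for the 16 with a promoter and none. This difference was not tested. Those 11 also had a higher median log2(TPM + 1), at 3.06 against 2.46 in control 2, on a scale that understates the change of low genes. The 6 members without a promoter in the table are in neither group, at 0.45 for Ccne2 and 0.98 to 1.29 for the others. A match is a description of letters, not a bound site.

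In 7 members the words lie before the start site. For the 5 of these where the stretch holds no exon base of the gene itself in GENCODE M21, 100 bases are shown, because among the motifs searched these letters stand highest above their share in all promoters. Each is written 5′ to 3′ along the gene's own strand, with E2F words in capitals. They are Mcm6 at chr1:128359726-128359825 (minus strand), Mcm5 at chr8:75109346-75109445 (plus), Cdc6 at chr11:98908003-98908102 (plus), Pola1 at chrX:93632204-93632303 (minus) and Uhrf1 at chr17:56304118-56304217 (plus). By GENCODE M21 the Cdc6 and Uhrf1 stretches are intronic to a transcript that begins further upstream, the other three lie before the gene, and none holds an exon of another gene.
Mcm6: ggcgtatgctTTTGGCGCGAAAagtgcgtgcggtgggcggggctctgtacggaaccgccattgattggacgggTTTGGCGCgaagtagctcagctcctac
Mcm5: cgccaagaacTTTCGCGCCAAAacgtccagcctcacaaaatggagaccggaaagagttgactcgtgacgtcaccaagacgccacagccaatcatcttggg
Cdc6: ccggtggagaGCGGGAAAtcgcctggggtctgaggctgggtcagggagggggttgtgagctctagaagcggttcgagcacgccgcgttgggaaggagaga
Pola1: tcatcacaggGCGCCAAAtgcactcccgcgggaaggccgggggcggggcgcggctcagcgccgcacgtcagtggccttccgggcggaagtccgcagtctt
Uhrf1: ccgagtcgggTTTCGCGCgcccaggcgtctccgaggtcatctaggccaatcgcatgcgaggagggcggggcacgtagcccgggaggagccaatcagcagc
Mcm6 and Mcm5 each carry a pair of words that overlap on opposite strands, and Mcm6 has 3 words in all.

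Among the cyclin and E2F genes, the 5 log2 fold changes had a median of 0.68. All 5 had both knockout-labelled values above both controls, as did 36.7% of all genes tested. Ccna2 (chromosome 3, 36564865 to 36572150 in GRCm38, minus strand) encodes cyclin A2, the CDK partner of S phase and G2. It was at 2.34 and 3.85 TPM in control 1 and control 2 and at 8.66 and 9.08 TPM in knockout 1 and knockout 2 (log2 fold change 1.29, SE 0.29, limma adjusted p = 0.127). The 2 knockout-labelled values lay close together and above both controls, which stood apart from each other. Of the exon bases of Ccna2, 12.5% are shared with Exosc9. E2f1, the activator of the family that is best known for starting S phase, was at 2.56, 2.73, 4.87 and 7.09 TPM in the same library order (0.92, SE 0.30, limma adjusted p = 0.206). Here the controls were alike and the libraries labelled HDAC KO differed. E2f2, a second activator, was at 1.78, 1.49, 2.40 and 3.62 TPM and was the 1 member whose lowest value was in control 2. Ccne1, a cyclin E gene, was among the lowest members at 0.225, 1.05, 1.21 and 1.93 TPM, from 4, 15, 23 and 43 reads, and its control values differed 4.69-fold. Its partner gene Ccne2 was 1.57-fold higher by mean TPM (limma adjusted p = 0.530), and 17.4% of its exon bases are shared with Ints8.

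The MCM and origin genes had a median log2 fold change of 0.89. In 12 of 12 the groups did not overlap, with the libraries labelled HDAC KO above, beside 36.7% of all genes tested. MCM2 to MCM7 form the ring-shaped replicative helicase. Mcm4 (chromosome 16, 15623897 to 15637400 in GRCm38, minus strand) was at 6.37 and 8.65 TPM in the control pair and at 18.6 and 15.1 TPM in the libraries labelled HDAC KO (log2 fold change 1.07, SE 0.25, limma adjusted p = 0.128). Mcm5 was at 4.83, 7.17, 12.9 and 13.6 TPM in the order control 1, control 2, knockout 1, knockout 2 (1.04, SE 0.26, limma adjusted p = 0.141). Both genes lay well apart between the groups, with the larger gap between replicates in the controls for Mcm5. Mcm6 was at 11.2, 13.9, 22.2 and 22.7 TPM and Mcm7 at 11.5, 13.7, 20.7 and 23.1 TPM, the 2 highest MCM genes in every library. Of the exon bases of Mcm7, 12.6% are shared with neighbouring genes. Mcm3 was 2.20-fold higher by mean TPM and Mcm2 1.72-fold. Mcm2 differed least between replicates, with 5.35 and 5.51 TPM in the control pair and 9.32 and 9.35 TPM in the libraries labelled HDAC KO, and its log2 fold change was 0.67 to 0.70 whichever library was left out. The 6 helicase genes summed to 44.5, 59.0, 98.0 and 103 TPM, and the highest stood at 2.39, 2.53, 2.39 and 2.47 times the lowest. Ratios between single subunits varied, with Mcm3 at 0.975, 1.81, 1.53 and 2.04 times Mcm2 in the same library order and Mcm4 at 1.19, 1.57, 2 and 1.61 times. Mcm3 lay below Mcm2 in control 1 only, and Mcm4 lay above Mcm2 in every library.

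Loading and activating factors of the helicase were lower in level than its subunits. Cdt1, the loader that is destroyed once S phase starts, was 2.39-fold higher by mean TPM (limma adjusted p = 0.176) and Cdc6, its partner, 1.76-fold (limma adjusted p = 0.494). Gins1 and Gins2, which encode subunits of the GINS activator, were 2.64-fold and 2.87-fold higher. Gins2 is uncertain, because 67.3% of its exon bases are shared with Gse1 and it had 12 and 32 reads in the controls. Cdc45 was at 0.981 and 2.88 TPM in the control pair and at 3.11 and 4.13 TPM in the libraries labelled HDAC KO, so control 2 stood nearer to knockout 1 than to its own group. Mcm10, an initiation factor outside the ring, had the smallest log2 fold change of these 12 genes (0.33, SE 0.32).

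Genes of synthesis at the fork had a median log2 fold change of 0.82. In 6 of 7 genes the libraries labelled HDAC KO lay above without overlap, beside 36.7% of all genes tested. Lig1 (chromosome 7, 13277283 to 13311433 in GRCm38, plus strand), the ligase that joins Okazaki fragments, was at 4.31 and 8.11 TPM in the control pair and at 17.4 and 19.4 TPM in the libraries labelled HDAC KO (log2 fold change 1.48, SE 0.31, limma adjusted p = 0.119). It had the second highest fold change of all members, and the groups were separated by more than the gap between the controls. Pole, the catalytic subunit of the leading-strand polymerase, was at 0.924, 2.40, 4.09 and 5.17 TPM in the usual order (1.13, SE 0.38, limma adjusted p = 0.221). Pcna, the sliding clamp, was the member with the highest mean level, at 17.6, 24.2, 36.3 and 29.3 TPM (0.64, SE 0.23, limma adjusted p = 0.237). Its gap between control 2 and knockout 2 was smaller than that between the controls, and 2 annotated pseudogenes carry its name and may share reads. Rfc4, a subunit of the clamp loader, was at 2.63, 3.66, 5.74 and 6.86 TPM, and 12.7% of its exon bases are shared with Eif4a2. The polymerase alpha gene Pola1 was 1.99-fold higher by mean TPM. The primase subunit gene Prim1 was 1.23-fold higher, at 4.6 and 6.14 TPM in the control pair and 6.72 and 6.49 TPM in the libraries labelled HDAC KO. Prim2, the gene of the other primase subunit and not a member, was 1.85-fold higher. The difference between Pola1 and Prim1 was not tested. Fen1, the flap endonuclease, is uncertain as a measure of 1 gene. It had 10, 16, 29 and 16 reads, 84.2% of its exon bases are shared with Tmem258 and Gm10143, its groups overlapped, and its log2 fold change of 0.20 became -0.03 without control 1 and -0.09 with quantile normalization.

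The 4 nucleotide synthesis genes did not move alike in value. Ribonucleotide reductase makes deoxynucleotides and has a large subunit, Rrm1, and a small subunit, Rrm2, that is known to be made in S phase. Rrm2 (chromosome 12, 24708241 to 24714146 in GRCm38, plus strand) was at 10.6 and 12.1 TPM in the control pair and at 26.3 and 25.3 TPM in the libraries labelled HDAC KO (log2 fold change 1.12, SE 0.19, limma adjusted p = 0.106), with an unadjusted p of 0.00135 that was the lowest of all members. Replicates of each group lay close together and far from the other group. Rrm1 was at 4.03, 5.55, 8.74 and 8.61 TPM in the same order (0.75, SE 0.26). Thymidylate synthase and thymidine kinase supply thymidine nucleotides by synthesis and by salvage, and their groups overlapped. Tyms was at 4.22, 6.91, 6.17 and 6.77 TPM (0.22, SE 0.30, limma adjusted p = 0.765), with the highest value in control 2. Tk1 was at 9.81, 15.1, 13.4 and 16.1 TPM (0.25, SE 0.27, limma adjusted p = 0.687). Both log2 fold changes were slightly negative without control 1, at -0.08 for Tyms and -0.04 for Tk1, and that of Tyms was -0.03 with quantile normalization; 1 annotated pseudogene carries the name of Tyms. The median of the 4 genes was 0.50, or 0.26 without control 1.

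Chromatin assembly and methylation genes had a median log2 fold change of 0.90. In 5 of 5 the libraries labelled HDAC KO lay above without overlap, beside 36.7% of all genes tested. Uhrf1 (chromosome 17, 56303321 to 56323486 in GRCm38, plus strand) recognises hemimethylated DNA behind the fork and brings in the maintenance methyltransferase. It had the highest fold change of the 33 genes, from 3.19 and 7.33 TPM in the controls to 18.5 and 20.7 TPM in the libraries labelled HDAC KO (log2 fold change 1.80, SE 0.37, limma adjusted p = 0.113). The controls differed 2.30-fold and the libraries labelled HDAC KO 1.12-fold, and the log2 fold change was 1.3 without control 1 and 2.29 without control 2. Dnmt1, the methyltransferase itself, was at 13.1, 19.8, 25.1 and 31.8 TPM (0.77, SE 0.26, limma adjusted p = 0.219), with control 2 nearer to knockout 1 than to control 1. The CAF-1 subunits place new histones behind the fork. Chaf1b was at 1.34, 2.68, 5.73 and 5.70 TPM (1.19, SE 0.33, limma adjusted p = 0.167), and Chaf1a at 0.945, 2.01, 3.00 and 4.09 TPM (0.90, SE 0.36, limma adjusted p = 0.279). Chaf1a is uncertain because 52.5% of its exon bases are shared with Ubxn6. Slbp, which binds the stem-loop of histone messages, had a small difference at 1.28-fold by mean TPM (limma adjusted p = 0.535).

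The rest of the pathway was read through a further list. Of 68 further replication, nucleotide, E2F and pocket protein genes in the table, 66 were tested and 0 passed the adjusted threshold in limma. At an unadjusted p under 0.05 by limma, 13 (19.7%) were higher and 1 was lower, beside 13.4% and 4.46% of all genes tested. Their median log2 fold change was 0.43, beside 0.80 for the members, and the difference between these lists was not tested. Of the 66, 44 (66.7%) had both knockout-labelled values above both controls, with 4 below, beside 36.7% and 14.3% of all genes tested. Among the 44 are Cdc7, Recql4, Chtf18, Dtl, E2f7 and E2f8. These genes reached the mean of 1 TPM needed for testing only through the libraries labelled HDAC KO. Among replication factors the median was 0.52 over 38 tested genes. The 4 with the smallest p were the clamp loader gene Rfc3 (3.23-fold by mean TPM), the single-strand binding protein gene Rpa2 (2.34-fold), the CDT1 inhibitor gene Gmnn (1.70-fold) and Tipin (1.83-fold), a fork protection factor. The origin recognition genes Orc3 and Orc4, chosen after their values were seen, had log2 fold changes of -0.26 (SE 0.19) and -0.24 (SE 0.26).

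Among 9 other nucleotide and chromatin assembly genes the median was 0.22. Asf1b, a histone chaperone, was 2.60-fold higher by mean TPM, the chromatin remodeller gene Hells 2.15-fold and Atad2 2.11-fold. The 19 other cyclin, E2F and pocket protein genes had a median of 0.32. Cks1b, a CDK subunit, was at 2.92, 2.16, 12.8 and 10.3 TPM (1.83, SE 0.27, limma adjusted p = 0.0988), a wider gap on this scale than that of any member. E2f8, an atypical E2F repressor, was 3.43-fold higher by mean TPM, from low control values. It was at 0.412 and 1.03 TPM in the control pair and at 2.21 and 2.75 TPM in the libraries labelled HDAC KO. E2f3 was 1.95-fold higher and the cyclin E partner Cdk2 1.72-fold. The retinoblastoma gene Rb1, chosen after its values were seen, was at 21.6, 27.8, 25.2 and 22.9 TPM, with a log2 fold change of -0.03 (SE 0.20).

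Genes of mitosis stood beside the members with a median of 1.02 over 23 genes. In 23 of 23 the libraries labelled HDAC KO lay above without overlap, beside 36.7% of all genes tested. Ndc80 was at 0.414 and 0.893 TPM in the control pair and at 1.85 and 2.65 TPM in the libraries labelled HDAC KO. Nuf2 was at 0.519, 1.24, 1.85 and 2.38 TPM in the same library order. Both reached the mean of 1 TPM needed for testing only through the libraries labelled HDAC KO. At an unadjusted p under 0.05, 19 (82.6%) were higher, beside 13.4%, and 0 passed the adjusted threshold in limma. Examples were Top2a (2.92-fold by mean TPM), which untangles replicated DNA, Ccnb2 (2.72-fold), a cyclin B gene, Bub1b (3.63-fold), a spindle checkpoint kinase, and Tpx2 (3.14-fold), a spindle assembly factor. The difference between the 2 lists was not tested.

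**Figure D3:**
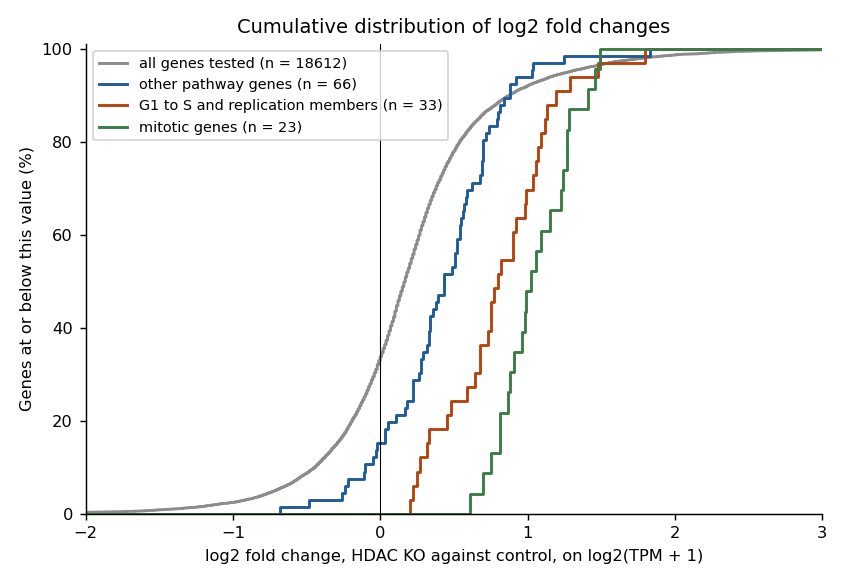
Cumulative share (percent) of genes at or below each log2 fold change for all 18612 genes tested, 66 other pathway genes, the 33 members and 23 mitotic genes. The curves cross the middle of the vertical axis at medians of 0.17, 0.43, 0.80 and 1.02.

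The libraries also differed in the summed levels of cell type markers, some of which moved with the members. Summed TPM of the members was 147 and 213 in control 1 and control 2 and 333 and 355 in knockout 1 and knockout 2. A list of 12 macrophage and other leukocyte markers summed to 55.1, 128, 577 and 663 TPM, with 10 of 12 genes above both controls in both libraries labelled HDAC KO. Of the 12, 9 passed the filter for testing, 2 were at 0 TPM in at least 1 library and 0 were at 0 TPM in all libraries. The 7 parietal epithelial markers summed to 206, 244, 848 and 647 TPM, and 7 of 7 lay above. The 10 proximal tubule markers went the other way, from 41768 and 8492 TPM to 4170 and 5167 TPM, with 9 of 10 below both controls. Over all genes tested, 36.7% lay above both controls in this way and 14.3% below. The 8 markers of later nephron segments (Henle loop, distal tubule, collecting duct) summed to 2462, 2415, 2176 and 2558 TPM, with 5 of 8 below, 1 above and a median log2 fold change of -0.93. The 10 podocyte markers summed to 341, 774, 121 and 330 TPM, with 3 of 10 below, so control 1 and knockout 2 were nearly level. Glomerular endothelial markers (338, 788, 280 and 567 TPM over 9 genes) and mesangial and smooth muscle markers (175, 222, 207 and 259 TPM over 8 genes) overlapped between the groups, as did 4 erythroid markers (40.5, 129, 19.2 and 84.3 TPM, median log2 fold change -0.99). In pooled RNA, more cells of a type and more RNA per cell cannot be told apart, and the part of these cell types in the members' difference was not tested.

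**Figure D4:**
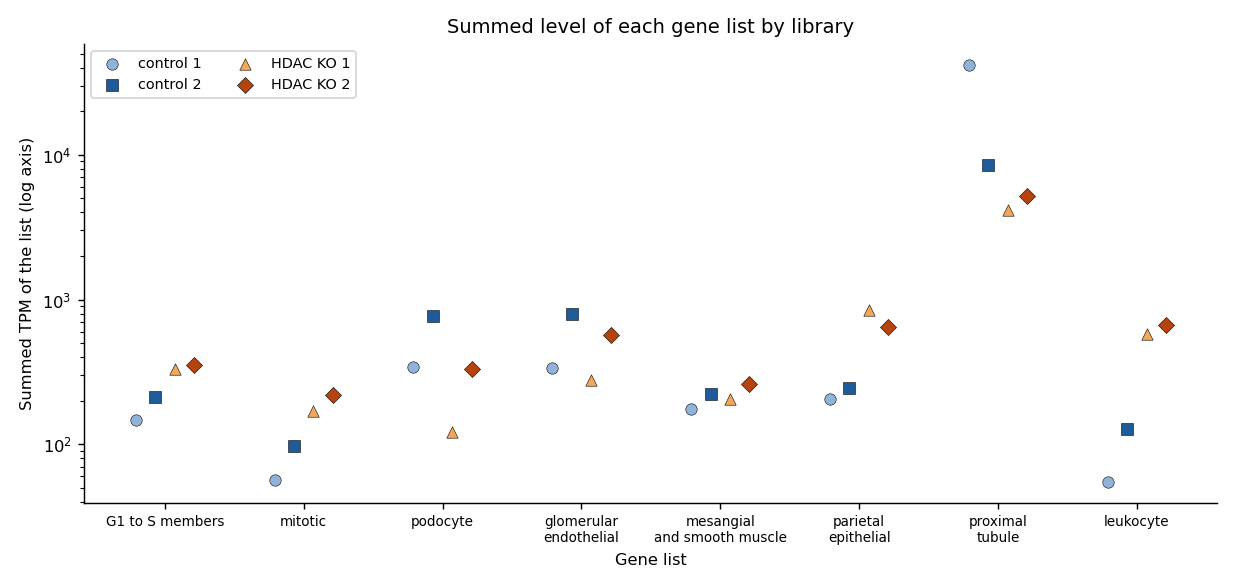
Summed TPM (log axis) of each gene list in the 4 libraries. The members and mitotic genes are lowest in control 1 and higher in both libraries labelled HDAC KO, as are the parietal and leukocyte lists, while the proximal tubule list is highest in control 1 at 41768 TPM.

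Control 1 was the lowest of the 4 libraries for 32 of 33 members and also the library with the most proximal tubule transcripts. Control 2 exceeded it by a median of 0.47 log2 units over the members and of 0.28 over all genes tested, whereas knockout 2 exceeded knockout 1 by 0.13 and 0.09. Without control 1 the members' median log2 fold change was 0.63, beside 0.04 over all genes, and 30 of 33 members remained positive. Relative to the median of all genes the members' median was 0.63 with all libraries and 0.59 to 0.73 with 1 library left out. Scaling by median ratios moved the median of all genes to -0.03 and that of the members to 0.59, a shift of about the same size for both. The groups did not overlap for 28 of 33 members under that scaling, beside 24.1% of all genes, and for 26 under quantile normalization, beside 25.3%.

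**Figure D5:**
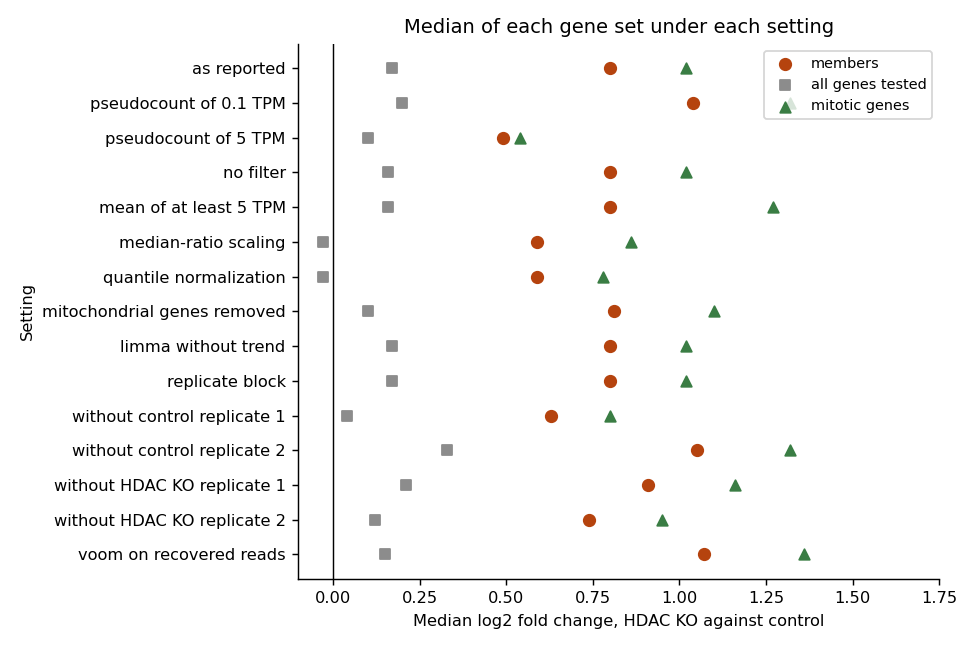
Median log2 fold change of the members, the mitotic genes and all genes tested under each setting, with all libraries or with 1 left out. The members' median stays between 0.49 and 1.07, to the right of the median of all genes in each of the 15 settings shown.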

How the data were processed

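Per the file's name, the authors deposited TPM, here for 22809 Ensembl genes in 4 columns that each sum to 1000000, and each column was matched to a sample by name. Tools named in the submitters' processing notes, with no role or order, are DESeq2 1.30.1, featureCounts 2.0.0, STAR 2.7.9 and fastp 0.20, and the build is GRCm38.p6. No source used here gives the annotation, the strand setting or the filter. If reads that overlap 2 genes were dropped, genes sharing exon bases read too low. TPM times exon length in GENCODE M21 gave whole multiples of 1 step per library for 22176 genes (relative tolerance 1e-06), which gave the reads. Each library is a pool of 2 mice, and the labels do not say what the replicate number marks. The main fit treated the libraries as independent.

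Differences were tested with limma 3.58.1 in R 4.3.3 (lmFit, eBayes with trend) on log2(TPM + 1) for the 18612 genes with a mean of at least 1 TPM, two-sided, with Benjamini-Hochberg adjustment over all of them and no covariate. All 33 members passed that filter. Ccne1, Gins2 and Fen1 did so with control means below 1 TPM, at 0.639, 0.949 and 0.926 TPM. The code was tested on simulated data. The members and lists were chosen with earlier results of these data known, so no list is independent evidence and no list test was run. In each role, the 4 members with the smallest p and the member with the highest mean level have values for every library, and some others do too; from each other list the 4 genes with the smallest p are named. Of the marker and pathway genes listed, 4 are not analysed here. Other settings are in the closing section. Python 3.11.15, numpy 2.4.6, pandas 2.3.3 and matplotlib 3.10.9 were used. The values of 1 further pathway gene are not reported here.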

Additional observations from a re-analysis of the deposited data

How the results depend on the processing

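Each result was recomputed under 14 other settings: pseudocounts of 0.1 and 5 TPM, quantile normalization, median-ratio scaling, removal of mitochondrially encoded genes, filters at no minimum and at a mean of 5 TPM, the replicate number as a block, limma without trend, voom on recovered reads, and each library left out, where a group reduced to 1 library borrows its variance from the other group. Of 446 member log2 fold changes, 441 kept their sign and 13 passed the adjusted threshold, all 13 without control replicate 2; the 5 reversals were -0.09 for Fen1 and -0.03 for Tyms with quantile normalization, and, without control replicate 1, Fen1, Tyms and Tk1, whose values with 1 library left out ran from -0.03 to 0.49, -0.08 to 0.52 and -0.04 to 0.54. All 70 role medians were above 0.

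With 1 library left out, the members called higher numbered 0 to 13, those at an unadjusted p under 0.05 4 to 24, and those with groups not overlapping 30 to 33 above and 0 to 1 below. Of all genes, the share lying above in this way was 43.5% without control replicate 1, 65.3% without control replicate 2 (where the count was 33), 50.8% without knockout replicate 1 and 42.9% without knockout replicate 2, beside 36.7% with all libraries. The genes called over the whole table numbered 0 to 1668 higher and 0 to 556 lower. The role medians were 0.63 to 0.95 for cyclin and E2F, 0.66 to 1.14 for MCM and origin, 0.49 to 1.0 for the fork, 0.26 to 0.74 for nucleotides and 0.59 to 1.21 for chromatin. The 1 gene called lower was lost (0 genes) with quantile normalization, limma without trend and voom; the cause was not tested.

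The cyclin and E2F median was 1.12 with a pseudocount of 0.1 TPM, 0.27 with 5 TPM, 0.40 with quantile normalization and 1.11 with voom. That of MCM and origin was 1.10 and 0.53 with these pseudocounts, 0.70 with median-ratio scaling, 0.66 with quantile normalization and 1.10 with voom. Ccna2 was the only cyclin and E2F gene tested at a mean of at least 5 TPM, so the value of 1.29 there is that of a single gene. At a mean of at least 5 TPM, 19 members were tested, 17 lay above without overlap (39.3% of all genes) and 14 were higher at an unadjusted p under 0.05 (15.2%). That count was 12 without mitochondrial genes (8.92%). Ccna2, Cdt1, Pola1 and Rrm1 reached a mean of 5 TPM only through the libraries labelled HDAC KO. The median of all genes was -0.03 with median-ratio scaling and with quantile normalization. With the replicate block, the members called stayed at 0, those at an unadjusted p under 0.05 at 22 and the members' median at 0.80. Replicate 1 deviations of the groups correlated at 0.14 over 18612 genes, which are not independent, and the labels do not say what the number marks. Members with 4 to 16 reads in a control, such as Ccne1, Gins1 and Fen1, are limited by depth.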

Other observations

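Ratios between partner genes within a library, on the TPM scale and for pairs chosen after the values were seen, are given as values with no test. Uhrf1 stood at 0.244 and 0.370 times Dnmt1 in control replicates 1 and 2 and at 0.736 and 0.652 times in knockout replicates 1 and 2. The ratio of Uhrf1 to Pcna was 0.182, 0.304, 0.509 and 0.706 in the same order, and that of Lig1 to Pcna 0.245, 0.336, 0.479 and 0.660. For polymerase alpha and 1 subunit of its primase, Pola1 to Prim1 was 0.586, 0.899, 1.13 and 1.35. In these 4 pairs both knockout-labelled ratios lay above both control ratios, and control replicate 1 was lowest. Rrm2 stood at 2.62, 2.19, 3.01 and 2.94 times Rrm1. Chaf1b to Chaf1a was 1.42, 1.33, 1.91 and 1.39, and Ccne1 to Ccne2 was 0.169, 0.492, 0.403 and 0.795; in both of these pairs the groups overlapped. Chaf1a shares exon bases with Ubxn6 and Ccne2 with Ints8, which can lower their share of reads.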
